A study of Mus musculus with 2 samples.

Results

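Sugar breakdown and sugar synthesis were read from 31 genes in mouse kidney. They encode the enzymes that carry glucose to lactate, the enzymes and the transporter that rebuild glucose from smaller molecules, the fructose kinase Khk, and the bifunctional enzymes that make and remove fructose 2,6-bisphosphate. The genes were chosen by symbol, and all 31 were found among the 43346 gene rows of each library. The rule used symbols and no measured value.

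Glycolysis turns glucose into pyruvate in the cytosol and gives ATP without oxygen. Gluconeogenesis runs most of the same steps backwards and bypasses the irreversible ones with Pck1, Fbp1 and G6pc, and in mammals the liver and the kidney cortex are its main sites. In the kidney, gluconeogenesis and fructose uptake belong to the proximal tubule, while the distal segments rely more on glycolysis.

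The tissue was the kidney of a female C57BL/6J mouse aged 10 weeks, an inbred strain in common use, with no treatment or allele named in the labels. Polyadenylated RNA was sequenced in 2 libraries, 1 per technical replicate of the same biological replicate 1, and the libraries are numbered as those replicates and form 1 group. The labels date the work on the second technical replicate to May 2015. Every SD is therefore technical (n = 2 libraries of 1 tissue sample), and every test compares 2 libraries, not 2 conditions.

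The libraries held 28263730 and 20720537 counts, and they stood apart in composition. The share of TPM held by mitochondrial genes and their nuclear copies was 74.5% in library 1 but 36.5% in library 2. TPM is a length-corrected share of a library that sums to the same total in each, so it moves with that share as well. Proximal tubule markers were present in both (8 genes, summed level 934 and 5823 TPM, library 1 first here and throughout), as were thick ascending limb markers (4 genes, 1001 and 3941 TPM). Lower sums came from the distal convoluted tubule (3 genes, 6.88 and 315 TPM), the collecting duct (5 genes, 28.7 and 479 TPM) and the endothelium (4 genes, 91.4 and 232 TPM). In bulk RNA, fewer cells of a type and less RNA per cell cannot be told apart.

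At least 1 enzyme of every step from glucose to lactate, and of each gluconeogenic step that the 31 genes cover, reached TPM 1 in both libraries. This level was reached in both libraries by 22 of the 31 genes, against 21.6% of all gene rows, and in library 2 by 29. Eno2 and Pfkfb1 stayed under TPM 1 in both by the deposited TPM. Their posterior mean TPM in library 2 was 2.79 and 1.41, so this depended on the estimate used. The 31 genes summed to 1100 TPM in library 1 and 9972 TPM in library 2, which is 0.11% and 0.997% of all TPM. Taken over nuclear genes other than those copies, the shares were 0.432% and 1.571%. The deposited TPM was higher in library 2 for all 31 genes, and for 29 when mitochondrial genes and copies did not enter the total. The order of the genes was partly kept, with Spearman's rho = 0.76 over the 31 genes, given as a description of genes that share both libraries.

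**Figure D1:**
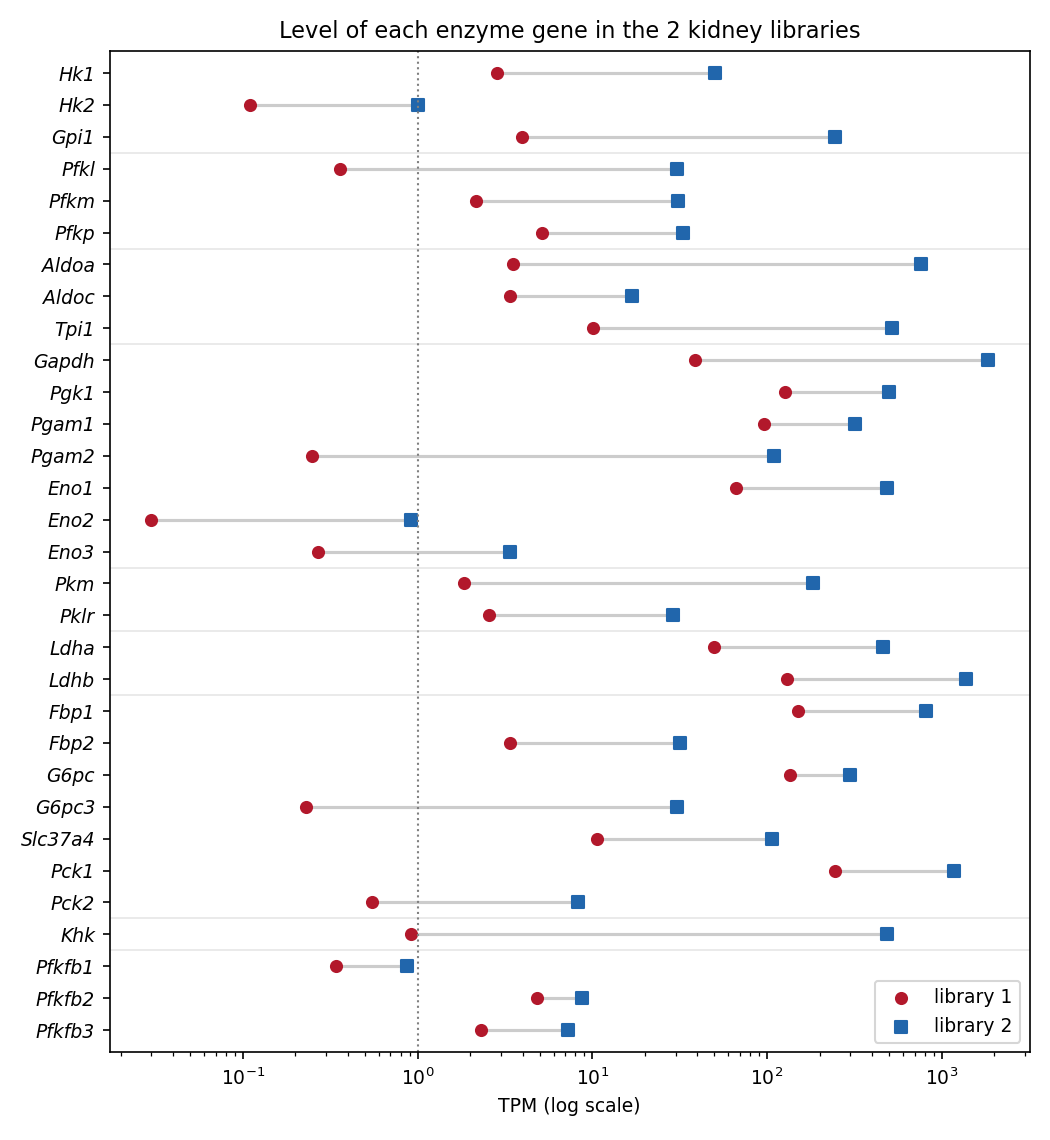
TPM of each of the 31 genes (log axis) in library 1 (circles) and library 2 (squares), with pale lines between groups of enzymes and a dotted line at TPM 1. Pck1 leads library 1 at 246 TPM and Gapdh leads library 2 at 1838 TPM, and every gene lies further right in library 2.

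Counts were compared with an exact conditional binomial test on TMM-scaled library sizes, and a gene was called where the Benjamini-Hochberg adjusted p over all 15553 genes tested was under 0.05 and the log2 ratio was at least 1 in size. A log2 ratio here is that of the TMM-scaled count in library 2 over library 1, and intervals of a fold cover counting error only. Of the 31 genes, 24 were called higher in library 2, against 35.5% of all genes tested. None was called higher in library 1, against 24.9% of all genes tested. G6pc and Pfkfb2 lay on that side with an adjusted p of 3.77e-25 and 4.27e-05 in the exact binomial test, under the fold threshold. The median log2 ratio was 2.51 over the 31 genes (range -0.44 to 7.55) and 0.12 over all genes tested.

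**Figure D2:**
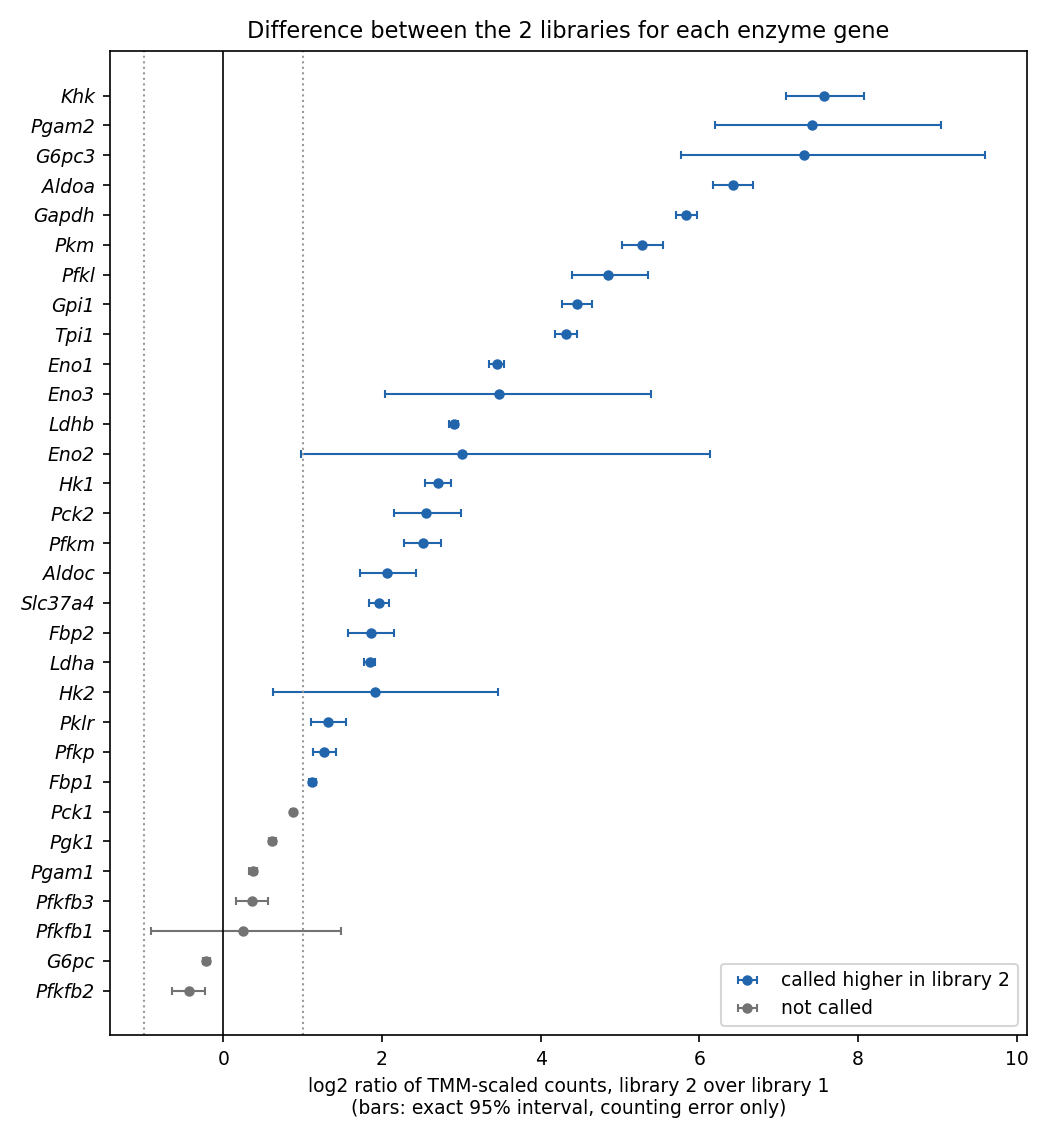
Log2 ratio of library 2 over library 1 for each gene, taken from the TMM-scaled counts without a prior count, with exact 95% intervals for counting error. The 24 genes called higher in library 2 run from Fbp1 to Khk, and the points of the 7 not called lie between the dotted lines at a log2 ratio of -1 and 1.

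Those ratios followed base composition. The most abundant transcript of matching length gave a GC content for 30 of the 31 genes. Khk had none, because the transcript lengths in the files and in the annotation differ. Spearman's rho between GC content and the log2 ratio was 0.83 over the 30 genes and 0.915 over 11508 genes with at least 100 counts, again as descriptions across genes of the same libraries. Below 48% GC, the 4 genes Hk2, G6pc, Pfkfb1 and Pfkfb2 had a median log2 ratio of 0.02, against -1.20 for the 4583 genes in that range. Between 56% and 58% GC, the 8 genes Hk1, Pfkl, Aldoa, Gapdh, Pgam2, Eno1, Pkm and G6pc3 had a median of 5.55, against 3.48 for 991 genes. With the trend on GC content removed from all genes, 12 of the 30 were called higher in library 2 (11.4% of all genes tested) and none higher in library 1 (10.7%), with a median log2 ratio of 0.82 against -0.004 for all genes. Of the 30, 25 lay above the trend. In these comparisons Hk2 carried the GC content of Hk2-202, a processed transcript. GC content of the coding sequence gave rho = 0.582 with the ratio over the 31 genes. GC content at the last base of codons, which ran from 53.6% to 73.5%, gave rho = 0.487. Both values include Khk and use Hk2-201 and Gpi1-201. They are therefore not like for like with the 0.83 over 30 genes, which used Hk2-202 and Gpi1-203.

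**Figure D3:**
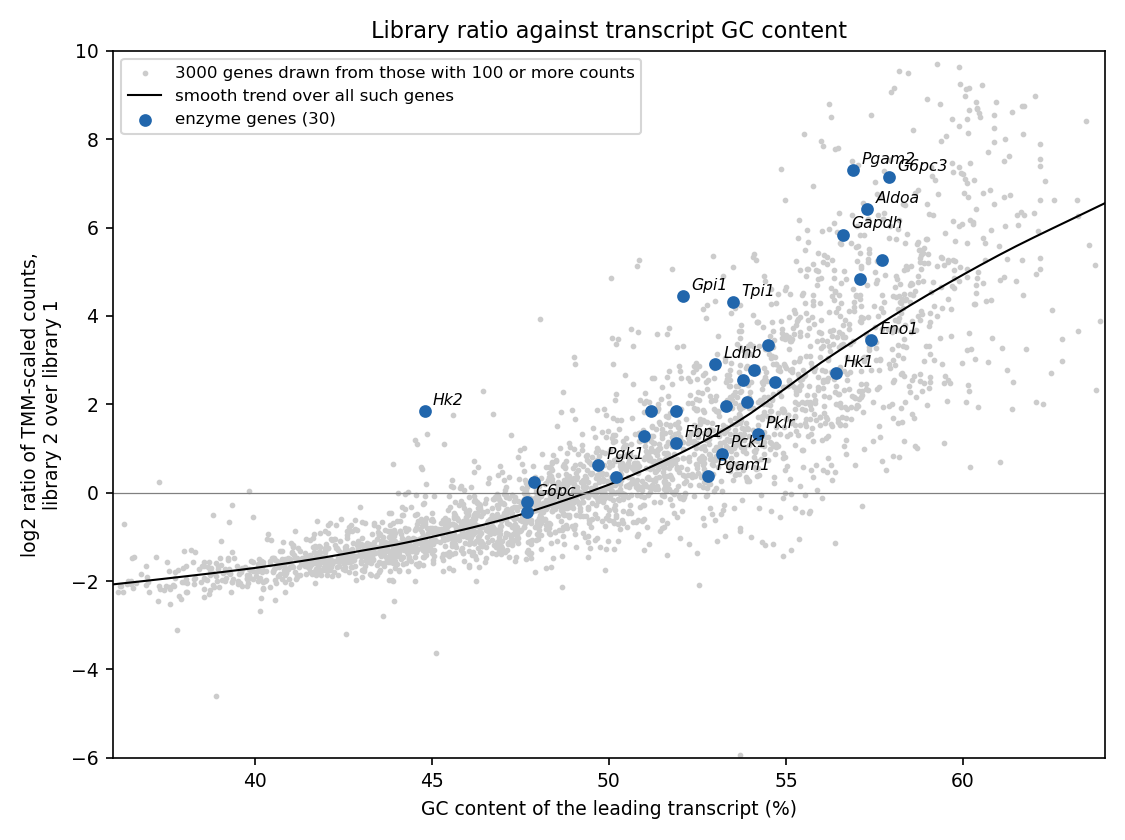
Log2 ratio of TMM-scaled counts (library 2 over library 1) against GC content of the leading transcript in percent, for 30 enzyme genes (blue), 3000 genes drawn from those with at least 100 counts (grey) and the smooth trend over all such genes (line). G6pc lies at 47.7% GC and a log2 ratio of -0.21 and G6pc3 at 57.9% GC and 7.14. Hk2, at 1.84, lies well above the trend at 44.8% GC, the value of its processed transcript Hk2-202. Its protein-coding transcript Hk2-201 has 51.9% GC.

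Glucose enters the pathway through hexokinases, and Hk1 was the main one of the pair measured. Hk1 had 2.83 and 50.6 TPM (26.7 ± 33.8, SD, n = 2 libraries), from 357 and 3196 counts. Its scaled count was 6.53-fold higher in library 2 (95% interval 5.85 to 7.30), and with the GC trend removed its log2 ratio was -0.45. Hk2, the insulin-responsive isozyme of muscle and fat, had 0.11 and 1 TPM from 6 and 31 counts, and passed the test in library 2 with few counts behind it (exact binomial test, adjusted p = 1.94e-03). The GC content of Hk2 (44.8%) comes from Hk2-202, a processed transcript of 594 bases with 0.97 and 4.62 counts. Its protein-coding transcript Hk2-201 has 51.9% GC and held 5.03 and 26.38 counts. The call of Hk2 with the GC trend removed (log2 ratio 2.84) rests on the GC content of Hk2-202. Gpi1, which converts glucose 6-phosphate to fructose 6-phosphate, had 3.94 and 245 TPM and was called higher in library 2 with and without the GC trend (log2 ratio 4.45 and 3.51). The GC content of Gpi1 comes from Gpi1-203, since the lengths of its leading transcript Gpi1-201 differ between the tables and the annotation.

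Phosphofructokinase commits the sugar to glycolysis, and its liver, muscle and platelet forms are named for the tissues in which they were first described. In library 2 the 3 forms stood close together, with 30.3 TPM for Pfkl, 31.1 TPM for Pfkm and 33.2 TPM for Pfkp. In library 1 they were spread out, with 0.36, 2.17 and 5.17 TPM. The order Pfkl, Pfkm, Pfkp from low to high was the same in both libraries, and their GC contents (57.1%, 54.7% and 51%) ran the opposite way. All 3 were called higher in library 2, and with the GC trend removed Pfkl alone was.

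Aldolase splits fructose 1,6-bisphosphate, and Tpi1 interconverts the triose products. Aldoa, the form of most tissues, had 3.51 and 763 TPM (383 ± 537, SD, n = 2 libraries), from 137 and 16093 counts. Aldoc, the form best known in brain, had 3.37 and 16.9 TPM. The quotient of Aldoa over Aldoc was 1.04 in library 1 and 45.2 in library 2. In library 1 it was 2.22 with effective lengths fixed at their library 2 values. Aldoc-206, a processed transcript of 706 bases, took 86.8% of Aldoc in library 1 and 3.19% in library 2. Tpi1 had 10.0 and 520.0 TPM and was called higher in library 2 with and without the GC trend (log2 ratio 4.32 and 2.81).

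Aldoa and Aldoc are close relatives, 75.9% identical over 1088 aligned coding bases, and their coding GC contents are nearly the same (56.7% and 56%). Their first 150 coding bases are shown to let the reader see how the differences are spread. They come from GENCODE M21 transcripts on GRCm38, Aldoa-201 from the minus strand of chromosome 7 and Aldoc-202 from the plus strand of chromosome 11. Capitals mark the 37 bases at which the pair differs.

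Aldoa: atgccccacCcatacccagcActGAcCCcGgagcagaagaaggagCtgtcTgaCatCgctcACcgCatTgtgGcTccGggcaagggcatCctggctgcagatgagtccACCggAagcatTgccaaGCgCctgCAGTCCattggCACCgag

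Aldoc: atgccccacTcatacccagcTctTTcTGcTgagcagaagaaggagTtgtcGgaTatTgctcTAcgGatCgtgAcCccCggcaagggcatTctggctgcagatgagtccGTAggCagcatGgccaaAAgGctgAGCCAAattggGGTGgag

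The printed stretch of Aldoa holds 62% GC and that of Aldoc 56%. Over whole leading transcripts the values are 57.3% and 53.9%, and with the GC trend removed the log2 ratios were 2.78 for Aldoa, which was called, and 0.31 for Aldoc, which was not.

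Lower glycolysis was led by Pgk1 in library 1 and by Gapdh in library 2. Gapdh, which oxidises glyceraldehyde 3-phosphate, had 38.9 and 1838 TPM (938 ± 1272, SD, n = 2 libraries), and ranked 1178th and 32nd among all genes. With its effective length fixed at the library 2 value (1141 bases against 366 in library 1), Gapdh had 12.8 TPM in library 1. Its scaled count was 57.2-fold higher in library 2 (95% interval 52.1 to 63.0). Near-identical copies of Gapdh are many, and the most abundant, the processed pseudogene Gm10359, matched Gapdh over 1002 bases at 100% identity and was listed at 0 and 77.6 TPM, so reads could be split between them. Pgk1, the first ATP-yielding enzyme, was among the steadier genes, with 127 and 501 TPM and a log2 ratio of 0.62 that did not reach the threshold. Its copy Pgk1-rs7 had 6.93 and 24.1 TPM.

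Among the pairs of glycolytic relatives, the mutases Pgam1 and Pgam2 differed most in log2 ratio. Pgam1, the form of most tissues (chromosome 19, 41911923 to 41918660), had 95.7 and 318 TPM from 4841 and 8583 counts, with a log2 ratio of 0.37 that did not reach the threshold. Pgam2, the form best known in muscle (chromosome 11, 5801640 to 5803733), had 0.25 and 110 TPM from 5 and 1175 counts. Its scaled count was 171-fold higher in library 2 (95% interval 73.2 to 529). Pgam1 was 383 times as abundant as Pgam2 in library 1 and 2.89 times in library 2. Of 6 skeletal muscle markers, 5 were under TPM 1 in both libraries and the sum was 0.76 and 1.71 TPM, with Myh4 and Tnnt3 at 0 counts in both. The pseudogene Pgam1-ps2, identical to Pgam1 over 765 bases, was listed at 0 and 21.9 TPM.

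The coding sequences of the mutases are 74.7% identical over 759 bases and alike in GC content (57.3% for Pgam1 and 56.7% for Pgam2), although their counts differed so unequally between the libraries. The first 150 coding bases are given from GENCODE M21 on GRCm38, Pgam1-201 on the plus strand and Pgam2-201 on the minus strand, with the 57 differing bases in capitals.

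Pgam1: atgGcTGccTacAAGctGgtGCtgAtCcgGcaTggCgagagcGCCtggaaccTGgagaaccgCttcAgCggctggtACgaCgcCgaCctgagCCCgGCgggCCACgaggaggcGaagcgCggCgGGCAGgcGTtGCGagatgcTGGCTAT

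Pgam2: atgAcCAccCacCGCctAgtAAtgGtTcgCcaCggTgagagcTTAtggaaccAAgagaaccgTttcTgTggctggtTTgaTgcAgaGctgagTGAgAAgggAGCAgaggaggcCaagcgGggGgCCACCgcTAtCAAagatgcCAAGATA

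In this stretch Pgam1 is the richer in GC (68% against 55.3%), while over whole transcripts Pgam2 is (56.9% against 52.8%). With the GC trend removed, the log2 ratio was 3.98 for Pgam2, which was called higher in library 2, and -0.84 for Pgam1.

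Enolase makes phosphoenolpyruvate. Eno1, the form of most tissues, had 66.3 and 489 TPM and was called higher in library 2 (log2 ratio 3.45), but lay on the other side of 0 with the GC trend removed (-0.25). With its effective length fixed at the library 2 value, Eno1 had 17.9 TPM in library 1. Eno3, the muscle form, had 0.27 and 3.38 TPM from 4 and 61 counts (exact binomial test, adjusted p = 2.46e-10). Eno2, the neuronal form, had 0.03 and 0.92 TPM from 2 and 22 counts, a fold of 8.02 with a counting interval of 1.97 to 70.4. The posterior mean TPM of Eno2 was 0.9 and 2.79, so its place under TPM 1 in library 2 depended on the estimate used. All 4 neuron markers were under TPM 1 in both libraries by the deposited TPM. Among the near-identical copies of Eno1, Eno1b had 2.19 and 1.65 TPM.

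Pyruvate kinase ends glycolysis, and its pair of genes changed places. Pklr, the liver and red cell form, had 2.58 and 28.9 TPM and was called higher in library 2 (log2 ratio 1.33), with -0.60 once the GC trend was removed. Pkm, which serves most other tissues, had 1.85 and 184 TPM from 128 and 6795 counts. The quotient of Pkm over Pklr was therefore 0.717 in library 1 and 6.36 in library 2. In library 1 it was 0.412 with effective lengths fixed at their library 2 values. Pklr-203, of 349 bases, took 45.2% of the Pklr level in library 2 from 34.8 counts, and 0% in library 1. Of the 17 pairs of related enzymes compared, 16 kept their TPM order between the libraries and Pkm with Pklr did not. In 16 of the 17 pairs the relative with the higher transcript GC content had the higher log2 ratio, the exception being Fbp1 and Fbp2. Pklr shares 711 exonic bases with Hcn3 on the opposite strand, which had 0 and 13 counts, and whether counting used strand is not stated. Red blood cell markers, 4 globin genes, summed to 42.3 and 2403 TPM, and their part in the Pklr value was not tested.

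Pkm is spliced with 1 of 2 mutually exclusive exons, which give the muscle form M1 and the widely expressed form M2. Pkm-201 took 100% of the deposited Pkm level in library 1 and 83% in library 2, and Pkm-202 took 0% and 17% (0 and 1157 counts). The posterior mean shares of Pkm-202 were 34% and 17.3%, so at 128 counts the share in library 1 depended on the estimate used. Both exons have 167 bases and are 61.7% identical, with the 64 differences in capitals. They are printed from GENCODE M21 on GRCm38, plus strand, at chr9:59675568-59675734 for Pkm-201 and chr9:59675029-59675195 for Pkm-202. The upstream exon is the textbook M1 exon and the downstream one the M2 exon. The deposited length of Pkm-202 (2432 bases) differs from that in GENCODE M21 (2041 bases), so the match of that transcript to its exon rests on its identifier.

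Pkm-201: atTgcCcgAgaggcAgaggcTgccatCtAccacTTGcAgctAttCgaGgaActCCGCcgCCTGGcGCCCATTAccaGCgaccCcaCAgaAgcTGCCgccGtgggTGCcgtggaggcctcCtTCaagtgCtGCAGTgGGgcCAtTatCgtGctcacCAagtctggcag

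Pkm-202: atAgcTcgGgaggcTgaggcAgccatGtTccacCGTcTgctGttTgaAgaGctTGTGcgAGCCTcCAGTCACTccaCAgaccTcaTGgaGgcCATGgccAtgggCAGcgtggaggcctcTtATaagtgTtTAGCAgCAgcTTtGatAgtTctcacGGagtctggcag

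The Pkm-201 exon holds 62.9% GC and the Pkm-202 exon 56.3%.

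Lactate dehydrogenase links pyruvate and lactate, and Ldhb, the heart-type subunit, exceeded Ldha, the muscle-type subunit, in both libraries. Ldhb had 131 and 1379 TPM, and Ldha had 50 and 462 TPM. The processed pseudogene Gm5514, a near-identical copy of Ldhb, was listed at 0 and 7.12 TPM. The quotient of Ldha over Ldhb was 0.383 and 0.335. It depends on the effective length that the files give Ldhb in library 1, 609 bases against 1112 in library 2, and was 0.698 in library 1 with the length of each gene fixed at its library 2 value. Both genes were called higher in library 2 with and without the GC trend. The log2 ratios with the trend removed were 1.605 for Ldhb and 1.001 for Ldha, the latter barely over the threshold of 1.

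Among the enzyme genes chosen here, gluconeogenesis supplied the most abundant one in library 1. Pck1, which makes phosphoenolpyruvate from oxaloacetate in the cytosol, had 246 and 1177 TPM (712 ± 658, SD, n = 2 libraries), from 18752 and 47478 counts. Its log2 ratio of 0.88 did not reach the threshold and was -0.50 with the GC trend removed. Pck2, the mitochondrial form, had 0.55 and 8.25 TPM, so that Pck1 exceeded it 448-fold and 143-fold.

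Fructose 1,6-bisphosphatase was represented mainly by Fbp1, the form of liver and kidney, with 150 and 808 TPM against 3.4 and 31.7 TPM for Fbp2, the muscle form. Fbp1 and Fbp2 lie close together on chromosome 13. Both were called higher in library 2 (log2 ratio 1.12 and 1.86), and with the GC trend removed Fbp2 alone was.

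Glucose 6-phosphatase releases free glucose in the endoplasmic reticulum. G6pc, the catalytic subunit of liver and kidney, had 135 and 299.7 TPM from 9270 and 10970 counts. Its scaled count was 0.863 times as high in library 2 as in library 1 (95% interval 0.839 to 0.887), which did not reach the fold threshold and turned to the other direction with total counts or with the GC trend removed. G6pc3, the form of most tissues, had 0.23 and 30.5 TPM from 3 and 659 counts, a fold of 160 with a counting interval of 54.6 to 779. G6pc was 588 times as abundant as G6pc3 in library 1 (1825 times with effective lengths fixed at library 2) and 9.83 times in library 2. This was the largest difference in log2 ratio among the 17 pairs (7.35), and the pair also has the second widest gap in GC content (47.7% and 57.9%). The widest gap, that of Hk1 and Hk2, rests on the GC content of Hk2-202. With the GC trend removed, the log2 ratio was 3.355 for G6pc3, which was called higher in library 2, and 0.241 for G6pc, which was not called. Slc37a4, which carries glucose 6-phosphate into the endoplasmic reticulum, had 10.6 and 106 TPM and was called higher in library 2 (log2 ratio 1.96), though not with the GC trend removed.

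Khk, ketohexokinase, phosphorylates fructose and lies on chromosome 5 (30921431 to 30931248). It had 0.92 and 488 TPM (245 ± 345, SD, n = 2 libraries), from 36 and 9364 counts. Its scaled count was 190-fold higher in library 2 (95% interval 137 to 271), the largest ratio of the 31 genes. This ratio could not be taken with the GC trend removed. Khk-201 as GENCODE M21 gives it (1257 bases, against 1456 as deposited) holds 57.9% GC. Over the 991 genes between 56% and 58% GC the median log2 ratio was 3.48. The part of GC content in the Khk value was not tested. The proximal tubule markers Slc5a2 (log2 ratio 4.13), Miox (3.73), Lrp2 (-0.32) and Slc5a12 (-1.51) did not move together, and their part in the Khk value was not tested. Khk-201 took 100% and 82.4% of the deposited Khk level. Its posterior mean shares were 55.4% and 82.2%, so at 36 counts the share in library 1 depended on the estimate used.

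The bifunctional 6-phosphofructo-2-kinases set the level of fructose 2,6-bisphosphate, which activates phosphofructokinase and inhibits fructose 1,6-bisphosphatase. None of the 3 was called in either direction. Pfkfb2, the heart and kidney form, had 4.84 and 8.75 TPM from 385 and 390 counts (log2 ratio -0.44). Pfkfb3, the inducible form, had 2.31 and 7.3 TPM from 305 and 538 counts (log2 ratio 0.36). Pfkfb1, the liver form, had 0.34 and 0.87 TPM from 11 and 18 counts, and its fold of 1.19 had an interval of 0.534 to 2.8 (exact binomial test, adjusted p = 8.16e-01). Their GC contents, 47.7% for Pfkfb2, 50.2% for Pfkfb3 and 47.9% for Pfkfb1, are among the lowest of the 31 genes.

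By step, all members were called higher in library 2 among the hexokinases with Gpi1 (3 of 3, median log2 ratio 2.71), the phosphofructokinases (3 of 3, 2.51), the aldolases with Tpi1 (3 of 3, 4.32), the pyruvate kinases (2 of 2, 3.30) and the lactate dehydrogenases (2 of 2, 2.37). In lower glycolysis 5 of 7 were called (median 3.34), and in gluconeogenesis 5 of 7 (median 1.86). Over all genes tested the share was 35.5%. With the GC trend removed, the calls were 2 of 3 for the hexokinases with Gpi1, 1 of 3 for the phosphofructokinases, 2 of 3 for the aldolases with Tpi1, 2 of 7 in lower glycolysis, 1 of 2 for the pyruvate kinases, 2 of 2 for the lactate dehydrogenases and 2 of 7 in gluconeogenesis. Among these calls, that of Hk2 rests on the GC content of its processed transcript Hk2-202. Over all genes tested, the share called higher in library 2 with the trend removed was 11.4%. The median GC content was 54.2% for the 20 genes from hexokinase to lactate dehydrogenase, 53.2% for the 7 of gluconeogenesis and 50% for all genes tested.

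The transcript that led a gene also differed between libraries. Among the 17 genes with several transcripts and at least 100 counts in each library, 6 had another leading transcript in library 2 than in library 1, against 30.3% of all such genes. They were Aldoa, Eno1, Gapdh, Ldhb, Pfkm and Pfkp, and in 5 the transcript leading in library 1 was the shorter, as in 75.9% of all genes that differed. Eno1-210, of 519 bases, took 89.8% of Eno1 in library 1 and 0.26% in library 2, where Eno1-202 of 2027 bases took 98.4%. Gapdh-207, of 471 bases, took 68.5% and 0%, and Ldhb-202, of 685 bases, took 81.1% and 0.1%, with lengths as deposited. Pfkm went from Pfkm-202 alone to Pfkm-201 alone. Pfkp, which shares 748 exonic bases with Pitrm1 on the opposite strand (1242 and 1735 counts), was the exception in length.

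**Figure D4:**
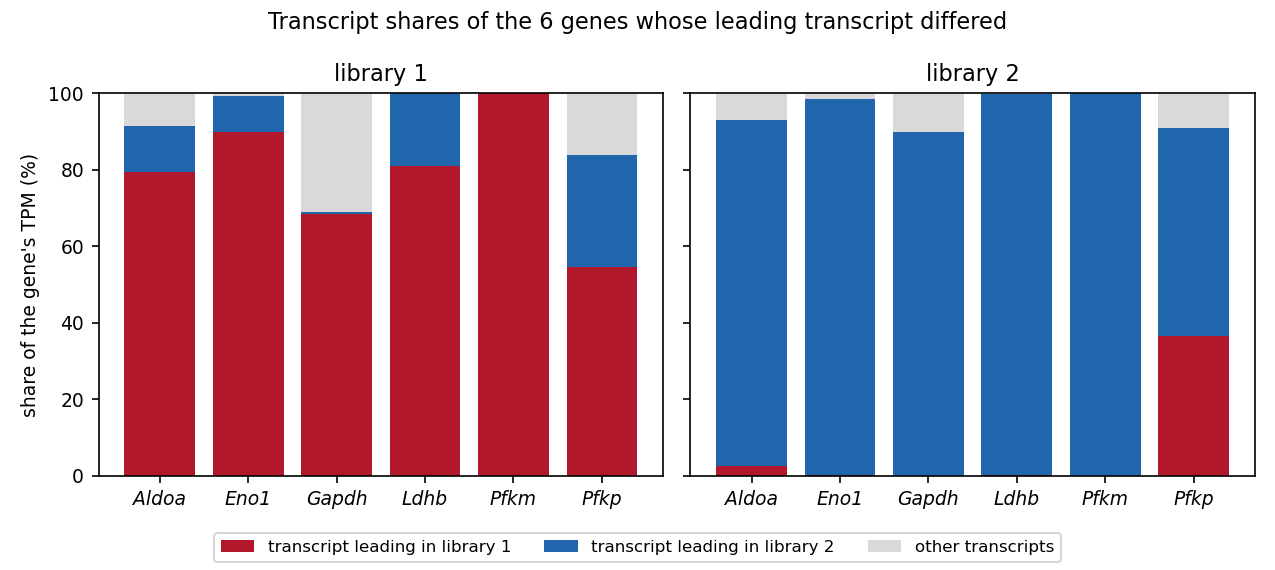
Share of each gene's TPM in percent taken by the transcript leading in library 1 (red), the transcript leading in library 2 (blue) and all others (grey), in each library, for the 6 genes whose leading transcript differed. For Pfkm the red transcript takes 100% of library 1 and the blue one 100% of library 2.

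In the 5 genes other than Pfkp, the stretch of the longer transcript that the shorter one also holds was poorer in GC than the rest of the longer transcript. The values were 50.8% against 58.9% in Eno1, 56.2% against 64% in Aldoa, 54.4% against 60.3% in Pfkm, 50.8% against 54.1% in Ldhb and 54.6% against 57.3% in Gapdh. Bases held only by the shorter transcript, 116 in Gapdh, 151 in Eno1, 160 in Aldoa and 83 in Pfkm, do not enter these values. Over whole transcripts, the one leading in library 1 was the richer in GC in Gapdh (57.5% against 56.6%). In Eno1 it was slightly poorer (57.2% against 57.4%), and it was also the poorer in Aldoa, Ldhb and Pfkm. Pfkp is not comparable with these genes, because its transcript leading in library 1 is the longer one. The Ldhb values rest on Ldhb-202 as GENCODE M21 gives it (437 bases), which is shorter than in the deposited tables (685 bases). These are descriptions of the annotated transcripts, and the part of GC content in the shares was not tested.

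Neighbouring genes of the pathway were read from a list of 27. Of these, 18 could be tested, 7 were called higher in library 2 and none in library 1, with a median log2 ratio of 0.32. The share of all genes tested that was called higher in library 2 was 35.5%. With the GC trend removed, 3 of the neighbouring genes were called higher in library 2, against 11.4% of all genes tested. The most abundant were Akr1a1, an aldehyde reductase (619 and 1613 TPM), Sord, which makes fructose from sorbitol (256 and 762 TPM), and the mitochondrial pyruvate carrier subunits Mpc2 (392 and 342 TPM) and Mpc1 (284 and 443 TPM). Akr1a1 was called higher in library 2 (log2 ratio 1.14), and Sord, Mpc1 and Mpc2 were not called. With the GC trend removed, Akr1a1 turned to -0.59 and was not called, while Mpc2 turned from -0.55 to 1.15 and was called higher in library 2. The testis genes Aldoart1 and Aldoart2 had 0 counts in both libraries.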

How the data were processed

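Polyadenylated RNA of 1 kidney sample was sequenced in 2 libraries (RNeasy Lipid Tissue Mini Kit and a size range of 350 to 450, per the labels). Expected counts, the estimated counts of reads per gene and transcript, were deposited without normalization, beside posterior mean counts, per the file headers. TPM, estimated counts over effective length, was deposited per library, as was each transcript's percent share of its gene. Tables are on mm10 with annotation M4, per the text deposited beside them, while for the aligner and the quantifier no name is given in the sources used here. The bounds deposited for TPM were not used for tests. GENCODE M21, on the same assembly, supplied symbols, coordinates and sequences (42462 of 43346 rows, 98%, matched), and 26345 rows of spike-ins and short RNAs, all at 0, were left out. No column was left unmapped to a sample.

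Expected counts were rounded and scaled by TMM (edgeR 4.0.16, R 4.3.3). A lone library on either side leaves nothing to fit a quasi-likelihood model to. The test was therefore an exact conditional binomial one, two-sided, for every gene whose counts over both libraries summed to 10 or more (Python 3.11.15 with scipy 1.17.1). Log2 ratios used a prior count of 0.5. To remove the GC trend, the log2 ratio was smoothed over GC content by lowess (statsmodels 0.14.6, span 20%) in genes of 100 counts or more. Copies were searched with blastn 2.17.0 at 95% identity over 50% of either sequence, and coding sequences were aligned with Biopython 1.88. The test was checked on simulated counts with counting error alone, the error that the test assumes. That check cannot tell how often other differences between real libraries lead to calls. Nothing in the labels says that the libraries came from separate animals, so p-values measure only the spread expected from counting in these 2 libraries.

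Alternatives were DESeq2 1.42.0 size factors, total counts, other count, fold and TPM minimums, posterior means, TPM without mitochondrial genes, copies added and each library left out. An effective length fixed at library 2 was added after seeing the data. All 31 genes are named. Other genes were named by rule: the 4 neighbouring pathway genes of highest mean TPM and those at 0 in both libraries, the most abundant copy of each member that reached TPM 1, transcripts at 20% or more of a gene, and overlapping genes. Of the transcripts and overlapping genes so selected, those that bear on a described value are printed. Of 28 listed neighbouring genes, 1 is not reported here, and it is left out of their counts and ranking. The genes and lists were chosen with earlier results of these data known.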

Additional observations from a re-analysis of the deposited data

How the results depend on the processing

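The 24 genes called higher in library 2 became 12 with the GC trend removed, which covered the 30 genes with a GC content. Over all genes tested, the share went from 35.5% to 11.4%. The number called stayed within 17 to 28 under 8 other settings of scaling, counts and thresholds. No gene was called higher in library 1 under any of them. The median log2 ratio of 2.51 was 3.41 with total counts, 2.75 with total counts without mitochondrial genes, 2.27 with a prior count of 2 and 0.82 with the GC trend removed. Calls over all genes were 58.8% in the direction of library 2, and 91.5% with total counts, 67.4% without mitochondrial genes and 51.7% with the GC trend removed. Total counts shifted the median log2 ratio of all genes tested by 0.899.

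With the GC trend removed, the log2 ratio changed sign for Hk1 (-0.45), Pgam1 (-0.84), Eno1 (-0.25), Pklr (-0.60), Pck1 (-0.50), G6pc (0.24) and Pfkfb2 (0.002). With total counts it changed sign for G6pc (0.69) and Pfkfb2 (0.47), and without mitochondrial genes for G6pc (0.029). The cause was not tested.

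At a threshold of TPM 5, 12 genes rather than 22 passed in both libraries. The median share of the leading transcript was 85% over both libraries, 64.1% with posterior means, and 90.5% to 99.3% from either library alone. The median of the genes' mean TPM ran from 3.4 to 106.2 between the libraries.

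No paired analysis was possible because the libraries form 1 group. The small counts of Pgam2, G6pc3, Eno2, Eno3, Hk2 and Pfkfb1 in library 1 limit their ratios most. Intervals cover counting error only.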
